A study of Mus musculus with 6 samples.

Results

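The H3K4me3 peak lists of mutant striatal progenitor cells treated with cyproheptadine or with Diacylglycerol kinase inhibitor II (DKI) were compared directly with each other. These are 2 of the 6 lists of the series, 1 list per condition, and they were paired because they are its shortest lists and because the study placed the compounds in different groups, cyproheptadine with loxapine in Group A and DKI with meclizine in Group B. Together they held 64479 of the 227418 peaks of the series. Both came from STHdhQ111 cells, a conditionally immortalized striatal progenitor line of C57BL/6 background that is homozygous for a knocked-in mutant huntingtin allele, kept for 24 hours without serum in 10 µM of the compound. Each line is a single cell line and carries the immortalizing transgene, so it models the mutation and not striatal tissue. Where other lists are given beside the pair, they are loxapine and meclizine (the same cells, 10 µM, 24 hours) and Q7SST. Q7SST is the wild-type STHdhQ7 line (genotype label STHdh7), kept 24 hours without serum with vehicle only. The list of the mutant cells given vehicle was not used here, so no value here says whether a compound raised or lowered a peak.

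H3K4me3, trimethylation of lysine 4 of histone H3, is deposited around the starts of active genes and of genes held ready for transcription. CpG-rich promoters carry it as broad peaks that run from just before the start into the first nucleosomes of the gene, whereas distal elements carry little. Cyproheptadine is an antihistamine that also blocks serotonin receptors. Diacylglycerol kinases phosphorylate the membrane lipid diacylglycerol to phosphatidic acid, which ends its activation of protein kinase C.

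The cyproheptadine list had 33721 peaks covering 32.5 Mb and the DKI list had 30758 peaks covering 29.5 Mb, against 38392 to 45564 peaks in the other 3 lists. Each peak carries a whole-number score, at least 10 in every list, whose scale is not stated and which cannot be set side by side between lists. It was therefore turned into a percentile, the peak's rank among all peaks of its own list. A coding promoter was taken as the 1 kb on either side of any annotated start of a coding gene, and it was given the percentile of the strongest peak there. Marked or differing promoters were counted by gene, so a peak that serves several genes is counted for each of them. The series design speaks of triplicate treatment, but the paper's ChIP-Seq methods give no replicate number. With 1 list per condition there is no replicate check for any value, no p-value is given, and read depth is unknown. Shares are given with 95% exact binomial intervals, which hold counting error alone and treat adjacent peaks as independent, which they are not. The labelled cell type was compared with marker promoters. Of 12 neural progenitor markers 6 were marked in both lists (Vim, Sox2, Dlx1, Dlx2, Meis2 and Foxp1), Nes in the DKI list only, and Sox11, Msi1, Gsx2 and Pax6 were among those marked in neither. Of 10 markers of mature striatal neurons only Penk was marked, 0 of 7 microglia and leukocyte markers and 0 of 10 markers of other tissues were marked in either list, and 3 of 9 glial markers (Gfap, Pdgfra and Slc1a2) were marked in both. Of 10 mesenchymal and vascular markers 5 were marked in both lists and Acta2 in the DKI list only.

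Sequences behind some of the clearest list-specific promoters are shown first, as examples. They do not stand for the base composition of the list-specific peaks, which is given below. They are stretches of up to 200 bases without annotated exons, plus strand of mm10, with each CG dinucleotide in capitals. With cyproheptadine only, the stretches lie at chr12:113186135-113186334 (Tmem121) and chr2:126607642-126607794 (Hdc). With DKI only, they lie at chr4:41640467-41640666 (Enho), chr3:101836224-101836423 (Mab21l3) and chr6:29278841-29279040 (Fam71f2).
Tmem121: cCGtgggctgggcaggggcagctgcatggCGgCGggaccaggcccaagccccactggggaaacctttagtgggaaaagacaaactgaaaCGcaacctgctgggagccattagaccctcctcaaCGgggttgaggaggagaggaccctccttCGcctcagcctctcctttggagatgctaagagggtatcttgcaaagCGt
Hdc: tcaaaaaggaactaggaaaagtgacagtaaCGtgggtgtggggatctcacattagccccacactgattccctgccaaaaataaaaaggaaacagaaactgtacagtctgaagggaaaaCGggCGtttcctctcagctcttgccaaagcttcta
Enho: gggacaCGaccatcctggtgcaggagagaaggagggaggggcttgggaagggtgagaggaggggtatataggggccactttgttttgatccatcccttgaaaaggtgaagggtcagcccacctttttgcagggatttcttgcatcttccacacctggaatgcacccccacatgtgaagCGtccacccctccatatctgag
Mab21l3: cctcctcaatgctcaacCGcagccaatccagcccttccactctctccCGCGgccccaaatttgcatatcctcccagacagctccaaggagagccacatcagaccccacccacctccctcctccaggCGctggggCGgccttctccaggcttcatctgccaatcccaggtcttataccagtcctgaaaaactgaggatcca
Fam71f2: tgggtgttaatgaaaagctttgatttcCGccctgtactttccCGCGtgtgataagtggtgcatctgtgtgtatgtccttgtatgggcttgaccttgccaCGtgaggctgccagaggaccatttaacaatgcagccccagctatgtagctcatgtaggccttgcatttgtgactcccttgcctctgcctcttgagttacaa
The Tmem121 stretch held 7 CG dinucleotides and the Hdc stretch 3. The DKI stretches held 2, 5 and 4. G and C bases made up 60% and 45.1% of the cyproheptadine stretches and 55%, 59% and 49.5% of the DKI stretches. The Tmem121 stretch thus goes against the lower share of G and C given below for the cyproheptadine-specific peaks.

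Most peaks of either list were present in the other. Of the cyproheptadine peaks 79.2% (78.8 to 79.6) overlapped a DKI peak by at least 1 bp, and of the DKI peaks 86.5% (86.2 to 86.9) overlapped a cyproheptadine peak. This left 7014 cyproheptadine-specific and 4141 DKI-specific peaks. When the cyproheptadine list was cut to its 30758 strongest peaks the 2 shares were 84.5% and 84.3%. As nearly every overlap joined a single peak of each list, lists of equal length must give nearly equal shares. Overlap depended on score. In the lowest decile of the cyproheptadine list 24.2% of peaks were found in the DKI list, and in the lowest decile of the DKI list 50.9% were found in the cyproheptadine list. From the 70th percentile upward the shares were 99.5% to 100% in every decile. The median percentile of a list-specific peak was 14.4 with cyproheptadine and 14.9 with DKI, and its median width was 393 and 348 bp, against 936 and 895 bp for peaks found in the other list.

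**Figure D1:**
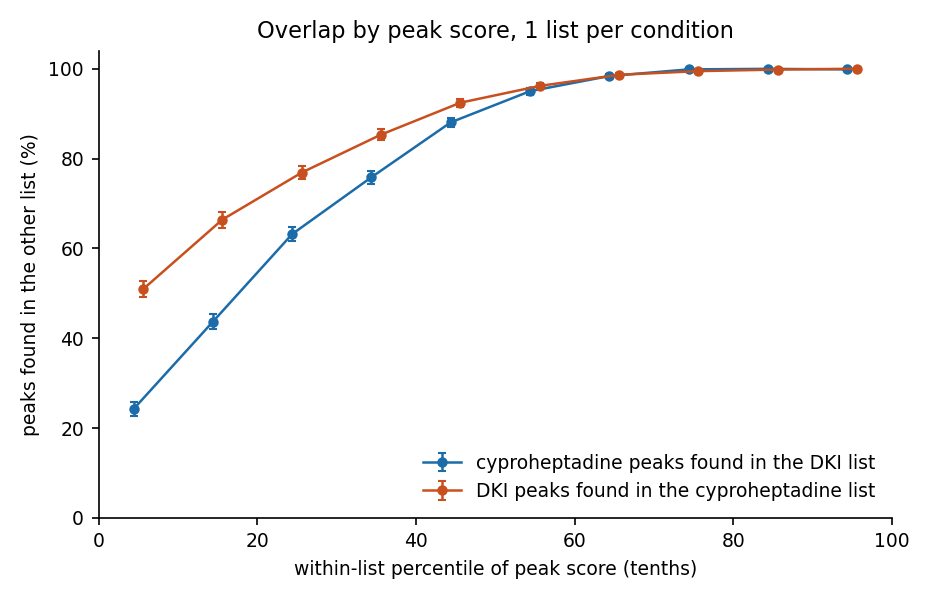
Share of peaks found in the other list (y axis, %) for each decile of the within-list score percentile (x axis), with 95% exact binomial intervals as bars. The curves start at 24.2% for cyproheptadine peaks and 50.9% for DKI peaks and meet above the 50th percentile.

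The list-specific peaks differed in sequence. The median share of G and C bases was 39.3% in the cyproheptadine-specific peaks and 43.2% in the DKI-specific peaks, against 47.8% and 48.3% in the peaks found in both. CG dinucleotides numbered 0.529 and 1.04 per 100 bp. The gap was also present among weak peaks. In the lowest quintile of each list by score, cyproheptadine-specific peaks had a median of 38.0% and found peaks 43.5%, whereas DKI-specific and found peaks had 42.2% and 43.0%. At coding promoters the medians were 47.2% for 393 cyproheptadine-specific peaks and 52.4% for 500 DKI-specific peaks, and CG dinucleotides numbered 1.25 and 2.98 per 100 bp. Position differed as well. Coding promoters held 5.60% (5.08 to 6.17) of the cyproheptadine-specific peaks and 12.1% (11.1 to 13.1) of the DKI-specific peaks, while introns held 44.6% and 39.4% and intergenic sequence 41.4% and 39.1%. Among the autosomes and X, chromosome 15 had the highest cyproheptadine-specific share, 30.8% of its peaks, and chromosome 7 the lowest, 13.2%. The DKI-specific shares ran from 11.0% on chromosomes 11 and 19 to 16.8% on X.

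**Figure D2:**
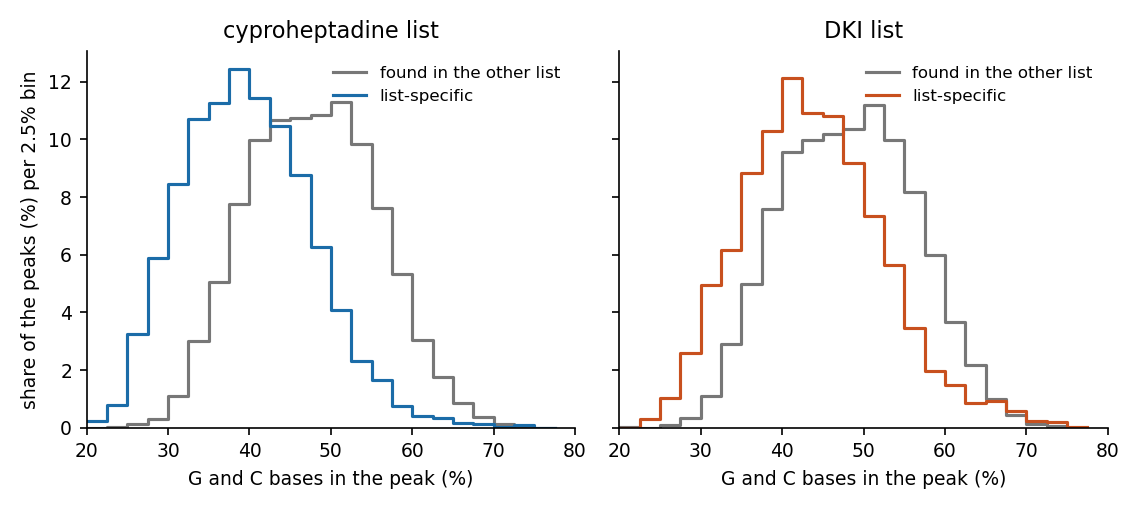
Share of peaks (y axis, %) by their content of G and C bases (x axis, % in 2.5% bins) for peaks found in the other list (grey) and list-specific peaks (colour), cyproheptadine on the left and DKI on the right. The cyproheptadine-specific peaks lie lower (median 39.3%) than the DKI-specific peaks (median 43.2%), and the found peaks of both lists nearly coincide (47.8% and 48.3%).

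List-specific peaks were often present in the other lists of the series. Of the cyproheptadine-specific peaks 63.4% overlapped a loxapine peak, 45.5% a meclizine peak and 30.7% a Q7SST peak. Of the DKI-specific peaks 69.6%, 68.7% and 40.7% did. The loxapine list is the longest of the 5, with 45564 peaks. The strongest cyproheptadine-specific peaks were an exception. The 5 with the highest scores, at percentiles 93.5 to 99.6, overlapped no peak of loxapine, meclizine or Q7SST. The highest was an intergenic peak at chr17:4626064-4626650 with a score of 213, and 63.5% of its bases are repeat-masked. Its central 200 bases (chr17:4626257-4626456, plus strand) are a tandem repeat in which the unit ATTCC occurs 30 times, shown in capitals.
Intergenic peak: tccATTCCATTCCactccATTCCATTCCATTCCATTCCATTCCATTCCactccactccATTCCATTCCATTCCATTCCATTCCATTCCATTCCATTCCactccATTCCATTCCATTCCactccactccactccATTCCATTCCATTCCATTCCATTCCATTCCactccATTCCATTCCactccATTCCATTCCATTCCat
The other 4 were 350 to 360 bp wide and 31.7% to 75.8% repeat-masked. The strongest DKI-specific peaks reached percentiles of only 78.7 to 86.2, and 9 of the 10 highest overlapped a loxapine peak. One of them lay in an intron at chr19:57243401-57243904, 1334 bp from the nearest cyproheptadine peak, and its central bases (chr19:57243553-57243752, plus strand, CG in capitals) contain no such repeat.
Intron peak: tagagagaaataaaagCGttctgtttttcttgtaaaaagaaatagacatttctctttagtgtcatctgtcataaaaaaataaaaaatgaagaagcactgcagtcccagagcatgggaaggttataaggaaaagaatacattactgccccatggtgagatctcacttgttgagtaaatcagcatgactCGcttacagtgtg

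The comparison at coding promoters asked which genes were marked with only one of the compounds. Of 21911 coding genes 12128 were marked with cyproheptadine, 12217 with DKI and 11941 with both. With cyproheptadine only, 187 promoters were marked, 1.51% of the 12404 marked in either list, and with DKI only, 276, or 2.23%. Requiring that the other list have no peak within 5 kb of any start of the gene left 133 and 196. The counts depended on the window. With a peak over a start required they were 340 and 740, and within 5 kb of a start they were 361 and 324, which turned their order. These promoters were weak, with a median percentile of 18.3 with cyproheptadine and 20.2 with DKI, against 80.0 and 76.8 for promoters marked in both. Of the 187, 137 were marked with loxapine, 138 with meclizine and 110 in Q7SST. Of the 276, 214, 235 and 184 were. Only 29 and 19 promoters were marked in none of those 3 lists.

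The 6 strongest promoters marked with cyproheptadine alone, and with no DKI peak within 5 kb, included tissue-restricted genes. Tmem121, a transmembrane protein gene, had an intronic peak of score 53 (percentile 61.0) 182 bp inside the gene, and the nearest DKI peak was 29120 bp from a start of the gene. Zpld1, which encodes a zona pellucida-domain protein, had a peak of score 51 (percentile 59.3). Hdc, histidine decarboxylase, the enzyme that makes histamine, had a 200 bp peak of score 45 over one of its starts (percentile 54.2). Its percentile was 55.1 with loxapine and 31.4 with meclizine, and Q7SST had no peak there. Mal, a myelin and lymphocyte membrane protein, was at 51.5, and at 68.0 with loxapine. Ropn1, a sperm tail protein, and 4930404H24Rik were both at 53.3. All 6 were narrow or moderate peaks of 196 to 522 bp, and 5 of the 6 were marked with loxapine and 6 of 6 with meclizine.

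The 6 strongest promoters marked with DKI alone, and with no cyproheptadine peak within 5 kb, had somewhat higher percentiles, 62.0 to 72.6. The highest was a 400 bp peak of score 78 shared by the zinc finger gene Zkscan4 and the predicted gene Gm10065 (percentile 72.6). The nearest cyproheptadine peak lay 10002 bp from a start of Zkscan4. It stood at 40.6 with loxapine, 61.5 with meclizine and 79.4 in Q7SST. Tnfrsf13c, the BAFF receptor of B cells, was at 69.2 with DKI, Enho, which encodes the peptide adropin, at 67.4, and Mab21l3 at 66.1. Fam71f2 was at 65.4 and the vomeronasal receptor gene Vmn2r60 at 62.0. All 6 were marked with loxapine and with meclizine as well, at percentiles of 27.4 to 66.7, so a peak here was absent from the cyproheptadine list and not particular to DKI.

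At the 11941 promoters marked in both lists the percentiles followed each other closely (Spearman rho 0.872 across promoters, which are not independent replicates). The median difference, DKI minus cyproheptadine, was -2.13 points with an SD of 10.4 points. The cyproheptadine percentile was higher at 61.6% of promoters and the DKI percentile at 38.4%. A difference of at least 20 points was seen at 655 promoters in favour of cyproheptadine (5.49%) and at 194 in favour of DKI (1.62%). Coding promoters held 38.1% of the cyproheptadine peaks and 41.7% of the DKI peaks, and a percentile counts the peaks elsewhere too. When promoters were ranked only among the 11941, the counts were 947 and 936 and the median difference was -0.013 points. That ranking gives both lists the same mean rank and so removes any overall shift by construction. It shows a promoter's place relative to the other shared promoters and bears on no overall difference. With both lists at 30758 peaks the counts were 444 and 366 and the median difference was -0.52 points. For scale, the 10 possible pairs of 5 lists had SDs of 8.03 to 13.5 points over the 11713 promoters marked in all 5, and this pair, at 10.2, lay between.

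**Figure D3:**
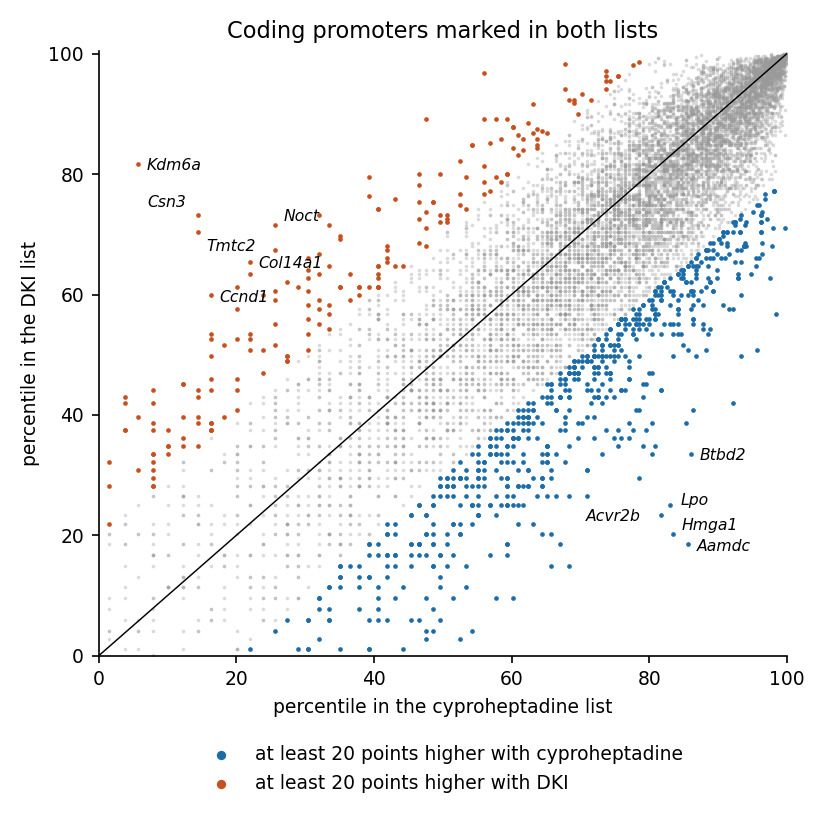
Within-list percentile of the strongest promoter peak with cyproheptadine (x axis) and with DKI (y axis) for 11941 coding promoters marked in both lists. Blue points are 655 promoters at least 20 points higher with cyproheptadine, orange points 194 at least 20 points higher with DKI, the line marks equal percentiles, and the labelled promoters are among the largest differences.

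The largest differences in favour of cyproheptadine included Aamdc, Hmga1, Acvr2b, Lpo and Btbd2. Hmga1, an architectural chromatin protein, had a score of 93 with cyproheptadine (percentile 83.5) and 22 with DKI (20.2). The peak covered a start in both lists and was 221 bp and 543 bp wide. Lpo, lactoperoxidase, had peaks of nearly equal extent, 244 and 235 bp, at percentiles of 83.1 and 25.0, and the other 3 lists lay at 82.1 to 90.7, beside cyproheptadine. Acvr2b, an activin receptor gene, was at 81.8 and 23.4. Here the cyproheptadine list had 2 peaks in the promoter and DKI a single 1569 bp peak, so differently divided regions were compared. Btbd2 was at 86.1 and 33.5 and Aamdc at 85.7 and 18.5. At Aamdc a 2492 bp cyproheptadine peak was compared with a 456 bp DKI peak, again regions of unlike extent. At 3 of these genes the difference depended on the window, since within 5 kb of a start it was -5.09 points at Btbd2, 7.86 at Aamdc and -35.5 at Hmga1.

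In favour of DKI the largest differences were at Kdm6a, Csn3, Tmtc2, Noct, Ccnd1 and Col14a1. Csn3, the milk protein kappa-casein, covered a start in both lists with scores of 16 and 79 (percentiles 14.4 and 73.2), and stood at 42.7 with loxapine and 44.7 with meclizine. Tmtc2, an endoplasmic reticulum membrane protein, was at 14.4 and 70.4. Col14a1, a fibril-associated collagen, was at 22.0 and 65.4. The remaining genes compared different peaks. Kdm6a, the X-linked H3K27 demethylase, had a weak peak 334 bp before the gene with cyproheptadine (percentile 5.78) and an intronic peak 986 bp from a start with DKI (81.8). Noct, the circadian gene nocturnin, was at 25.6 and 71.5, and Ccnd1, cyclin D1, at 16.3 and 59.9. Within 5 kb the differences of Kdm6a, Noct and Ccnd1 were -5.04, -11.6 and -15.0 points, in favour of cyproheptadine. At Csn3, Tmtc2 and Col14a1 the compared peaks overlapped, and the wider window left their differences unchanged. Their extents were unlike, with cyproheptadine and DKI peaks of 562 and 880 bp at Csn3, 900 and 640 bp at Tmtc2 and 1005 and 285 bp at Col14a1. At Tmtc2 the DKI peak lay before the gene and did not cover the start. Ranked among shared promoters the differences were 42.5, 37.8 and 29.5 points.

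**Figure D4:**
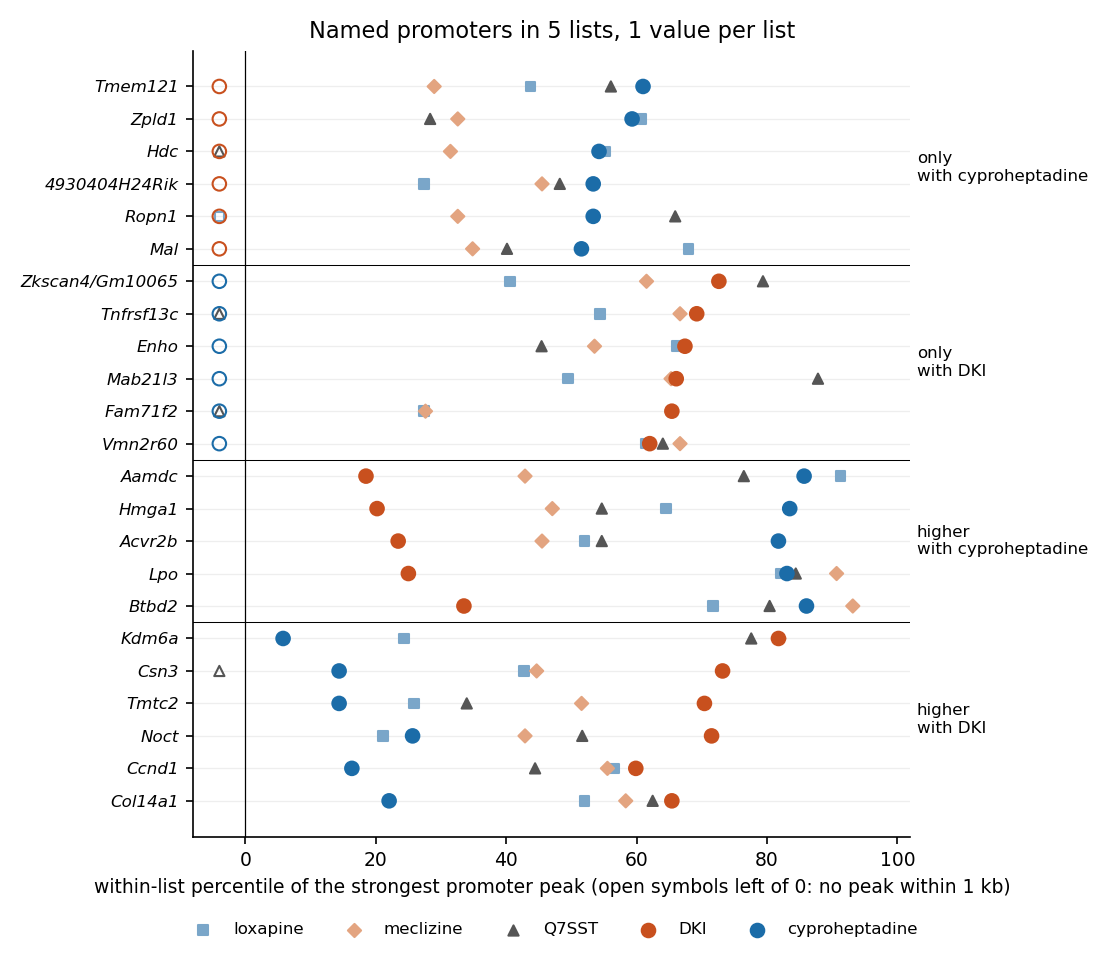
Within-list percentile (x axis) of the strongest peak at each named promoter (rows) in 5 lists, 1 point per list, with open symbols left of 0 where a list had no peak within 1 kb. The upper blocks are promoters marked with only one compound and the lower blocks those among the largest differences, and at Kdm6a the meclizine point (81.9) lies under the DKI point (81.8).

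The other lists were set beside the promoters that differed. Among the 655 promoters at least 20 points higher with cyproheptadine, the median percentile was 70.3 with cyproheptadine, 43.0 with DKI, 71.1 with loxapine and 65.3 with meclizine. Loxapine lay nearer to cyproheptadine at 91.0% and meclizine at 80.2% of those marked in them. Among the 194 at least 20 points higher with DKI, the medians were 35.0 with cyproheptadine, 64.5 with DKI, 60.2 with loxapine and 61.5 with meclizine, and loxapine and meclizine lay nearer to cyproheptadine at 30.5% and 27.5%. Over all shared promoters that were higher with cyproheptadine by any amount these shares were 86.9% and 76.5%, and over those higher with DKI 29.1% and 29.3%, so the promoters 20 points apart differed little from the rest. The shares also depended on the scale. Ranked among the 11924 promoters marked in all 4 compound lists, loxapine lay nearer to cyproheptadine at 64.8% and meclizine at 44.1% of the 947 promoters at least 20 points higher with cyproheptadine, and at 70.9% and 55.4% of the 936 at least 20 points higher with DKI, against 59.1% and 50.6% of all 11924.

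Lists of genes were read beside the background of -2.13 points, with 38.4% of promoters higher with DKI. Wherever a 95% interval of a list median was computed, it contained -2.13 points, so on this scale no such median was set apart from the background. Examples are diacylglycerol and protein kinase C (-10.8 to -0.16) and the Wnt pathway (-15.3 to 1.66). The intervals treat promoters as independent. The values below are given as description. Genes of diacylglycerol turnover and protein kinase C, the pathway DKI acts on, had 28 of 39 promoters marked in both lists, and 8 of the 28 were higher with DKI (28.6%). The median difference was -5.56 points, or -2.06 when ranked among shared promoters, where all genes have -0.013. Plce1, a phospholipase C that produces diacylglycerol, was at 76.5 with cyproheptadine and 44.1 with DKI, with 86.8 for loxapine and 85.0 for meclizine. Dgkh, a diacylglycerol kinase, was at 65.2 and 34.8, but a 228 bp peak before the gene was compared with a 2439 bp peak over its start. No member was marked in a single list. Of 34 amine receptor genes, which include the targets of cyproheptadine, 3 were marked in both lists (Hrh1, Adra2a and Adra1b), Htr1b with cyproheptadine only (percentile 12.3) and Adra2b with DKI only (16.7), and their median difference was -4.36 points (-0.68 by shared rank). Adra2a was at 47.6 and 40.8 and Adra1b at 37.9 and 33.5. Hrh1, the histamine receptor that antihistamines block and named here after its values were seen, was at 93.4 and 91.6.

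Glycolysis and pyruvate entry had 14 of 25 promoters higher with DKI (56.0%), with a median difference of 0.66 points and 7.58 by shared rank. Pdk4, a kinase that shuts pyruvate dehydrogenase, was at 25.6 with cyproheptadine and 60.6 with DKI. Loxapine, meclizine and Q7SST gave 47.7, 61.5 and 68.6, so cyproheptadine was the lowest of the 5. Ldhb, a lactate dehydrogenase subunit, was at 20.2 and 46.1 and again lowest with cyproheptadine, with 51.2, 58.8 and 71.5 in the others. Pkm, pyruvate kinase, was the only promoter of the list at least 20 points higher with cyproheptadine, at 69.7 and 48.9. In the electron transport list 11 of 29 were higher with DKI (37.9%, median -0.91 points, 1.00 by shared rank). Sdhb, a subunit of complex II, was at 54.2 and 33.5 and Ndufs1, of complex I, at 55.1 and 67.4. Sterol metabolism had 14 of 29 higher with DKI (48.3%, median -0.18 points, 5.32 by shared rank). Abcg1, a sterol exporter, was at 57.7 and 89.1 and Msmo1, a sterol synthesis enzyme, at 72.6 and 92.1. At Abcg1 the strongest peak lay over an exon with cyproheptadine and in an intron with DKI.

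The list of 32 autophagy genes had 32 promoters marked in both lists, 12 of them higher with DKI (37.5%), with a median difference of -3.67 points and -2.12 by shared rank. Wipi1, a phagophore protein, was at 76.5 and 55.9 and Pik3c3, the lipid kinase that starts autophagosome formation, at 65.8 and 47.0. Both had peaks of nearly equal width in the lists. Atg9b, an autophagy gene outside the list and named after its values were seen, was marked with cyproheptadine only at 94.1. A DKI peak lay 1486 bp from a start, just outside the window. Abcb8 had the same cyproheptadine percentile, 94.1, and stood at 92.1 with DKI. Whether Atg9b and Abcb8 share a peak was not tested. Lysosomal genes had 8 of 25 higher with DKI (32.0%, median -1.97 points, 0.23 by shared rank). The largest differences were at Gaa, acid alpha-glucosidase, at 70.9 and 52.6, and Psap, the saposin precursor, at 95.2 and 79.2. Cytosolic ribosomal protein genes had 9 of 29 higher with DKI (31.0%, median -4.10 points, -3.92 by shared rank). Of the 29, 3 were at least 20 points higher with cyproheptadine and 1 with DKI, Rpl10a, at 61.7 and 85.9, where over all shared promoters 5.49% and 1.62% were.

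The Wnt pathway had a median of -7.11 points, or -2.22 by shared rank, and 10 of its 31 shared promoters were higher with DKI (32.3%). The ligand gene Wnt10a was at 62.4 with cyproheptadine and 28.1 with DKI. Tcf7, a transcription factor at the end of the pathway, was at 25.6 and 59.1 with peaks of 1102 and 1051 bp over the same start. The ligand genes marked with DKI only were Wnt5b at 20.2 and Wnt7b at 5.96. Among developmental transcription factors 13 of 31 were higher with DKI (41.9%, median -2.97 points, 0.60 by shared rank). Lhx1 was at 50.6 and 14.9 and Dlx5 at 57.7 and 30.9, both higher with cyproheptadine. The 5 members marked in a single list were all marked with DKI, where 1.51% of all promoters marked in either list were marked with cyproheptadine only and 2.23% with DKI only. Among the 5 were Hoxa9, Hoxc8, Lhx8 and Nkx2-2 at percentiles of 48.0, 5.96, 26.6 and 1.15, and a cyproheptadine peak lay 1318 bp from a start of Hoxa9.

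Neuronal channel and synapse genes had 4 of 11 promoters higher with DKI (36.4%, median -1.14 points, -1.51 by shared rank). Cacna1b, a presynaptic calcium channel, was at 70.9 and 30.9 and Scn1a, a sodium channel, at 80.5 and 53.5 with 265 bp peaks in both lists. At Scn1a the other lists stood at 82.1 to 88.6. Nrxn2, a presynaptic adhesion molecule, was marked with DKI only (43.0). Extracellular matrix genes had 12 of 29 higher with DKI (41.4%, median -3.96 points, 1.19 by shared rank). Col6a3 was at 44.3 and 11.4 and Mmp14, a membrane-bound matrix protease, at 60.2 and 37.4. Lama4 and Lox, a collagen crosslinking enzyme, were marked with DKI only, at 26.6 and 91.0, but a cyproheptadine peak lay 1251 bp from a start of Lox, just outside the window.

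Of the signalling and stress lists, immediate early genes had 11 of 25 higher with DKI (44.0%, median -2.23 points, 0.75 by shared rank). Dusp5, an ERK phosphatase, was at 67.8 and 39.7 and Jund at 79.5 and 54.3. Integrated stress response genes had 9 of 23 (39.1%, median -1.11 points, 1.28 by shared rank), with Atf3 at 55.1 and 37.4 and the cystine transporter gene Slc7a11 at 64.5 and 77.2. Gdf15, a stress-induced hormone, was marked with DKI only (47.0), with a cyproheptadine peak 1050 bp from its start. Interferon and innate immunity genes had 10 of 29 (34.5%, median -3.0 points, 0.25 by shared rank), with Il6 at 80.0 and 98.3 and Tlr3 at 74.3 and 90.0. Cell cycle genes had 14 of 32 (43.8%, median -1.42 points, 1.13 by shared rank). Ccnb1, cyclin B1, was at 72.6 and 52.6. Cdkn1b, the inhibitor p27, had a 209 bp peak over its start with DKI only (percentile 83.6), and a cyproheptadine peak lay 1697 bp from that peak. No loxapine, meclizine or Q7SST peak overlapped that DKI peak. The H3K4 methylation machinery, which writes and removes the mark, had 11 of 21 higher with DKI (52.4%, median 0.21 points, 4.99 by shared rank). Kmt2c, a methyltransferase, was at 84.6 and 65.4 and Wdr5, a shared complex subunit, at 82.6 and 65.4.

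Cell type markers differed little in number. The 6 shared neural progenitor markers had a median difference of 0.46 points (5.38 by shared rank), and 4 of the 6 were higher with DKI. Sox2 was at 35.0 and 47.0 and Vim at 56.9 and 63.4, while Dlx2 was at 36.5 and 33.5 and Foxp1 at 76.0 and 75.8. Nes, an intermediate filament of progenitors, was marked with DKI only at 32.2, and stood at 68.5 with loxapine, 37.0 with meclizine and 90.7 in Q7SST. Penk, the enkephalin precursor, was at 3.80 and 37.4. The 3 glial markers had a median difference of 3.0 points (5.66 by shared rank), with Slc1a2 at 27.4 and 14.9 and Gfap at 37.9 and 47.0. The 5 shared mesenchymal and vascular markers had a median of 3.79 points (3.87 by shared rank). Col1a1 was at 70.9 and 79.2, Prrx1 at 56.0 and 61.3 and Twist1 at 39.2 and 43.0, all higher with DKI. Pdgfrb was at 56.0 and 37.4 and Col1a2 at 60.2 and 48.9, both higher with cyproheptadine, and Acta2 was marked with DKI only at 5.96. How far cell composition bears on the lists was not tested.

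Promoter peaks were slightly narrower with DKI. At 9939 promoter peaks that matched a single peak in the other list, the median width was 1532 bp with cyproheptadine and 1443 bp with DKI, and the median ratio was 0.954. The cyproheptadine peak was the wider at 66.9%. Large changes were balanced, with 140 peaks at least 2 times wider with cyproheptadine and 151 at least 2 times wider with DKI. Peaks of 3 kb or more numbered 355 with cyproheptadine, of which 354 were found in the DKI list, and 255 with DKI, all found in the cyproheptadine list. The ratio ran from 1.04 in the quintile of promoters narrowest with cyproheptadine to 0.924 in the widest quintile, a direction that ranking by one of the compared widths favours.

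The largest width ratios went both ways. Wider with cyproheptadine were Slc45a4 (1206 against 207 bp), Nrarp, a Notch feedback regulator (1554 against 272 bp), Msln, mesothelin (2303 against 407 bp), and Kprp, a keratinocyte protein (1050 against 200 bp). At Slc45a4 there were 3 cyproheptadine and 2 DKI peaks in the promoter. Wider with DKI were Phlda2, an imprinted growth regulator (1265 against 196 bp), Nptxr, the neuronal pentraxin receptor (1530 against 244 bp), Ccdc152 (1259 against 213 bp) and Prss36 (1058 against 216 bp). At 6 of these 8 promoters the list with the wider peak had the lower percentile. Nrarp was wider with cyproheptadine but at percentile 10.1 there and 34.8 with DKI, and Nptxr was wider with DKI but at 30.4 with cyproheptadine and 11.4 with DKI. The other way round, Kprp was wider and higher with cyproheptadine (14.4 against 5.96) and Phlda2 wider and higher with DKI (33.5 against 30.4). Across the matched peaks the width ratio and the percentile difference had a Spearman rho of -0.262, as a description across peaks.

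The narrowing lay on the gene side of the start. At 7551 promoters whose start was covered in both lists and whose peak served genes of a single strand, the peak reached a median of 1079 bp downstream with cyproheptadine and 975 bp with DKI. The median difference at the same promoter was -70 bp, and the cyproheptadine peak reached further at 74.4%. Upstream the medians were 419 and 441 bp, the median difference was 6 bp, and the DKI peak reached further at 53.8%. Over the 7222 promoters covered in 5 lists the downstream reach was 974 bp with DKI, the lowest, 1080 bp with cyproheptadine, 1115 bp with meclizine, 1147 bp in Q7SST and 1201 bp with loxapine. The upstream reach was lowest with cyproheptadine (428 bp), followed by DKI (450 bp), meclizine (489 bp), loxapine (490 bp) and Q7SST (511 bp).

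**Figure D5:**
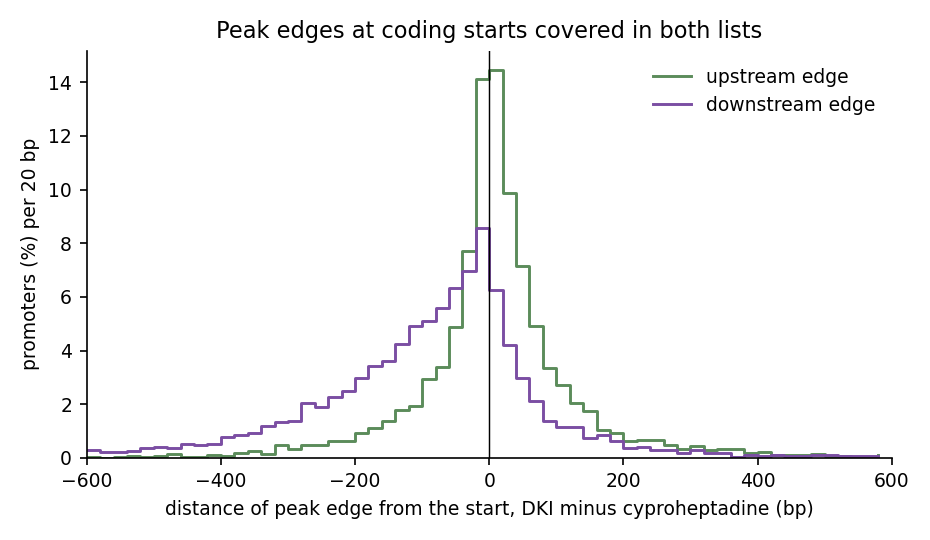
Difference in the distance from the start to the peak edge, DKI minus cyproheptadine (x axis, bp), as the share of 7551 promoters per 20 bp (y axis, %), for the upstream and the downstream edge. The upstream edges centre near 0 (median 6 bp) and the downstream edges lie to the left (median -70 bp), where the cyproheptadine peak reaches further into the gene.

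Base composition also went with the percentile difference. Among promoters with a single matched peak, the quintile with the lowest share of G and C bases (30.0% to 48.1%) had a median difference of -1.03 points and the quintile with the highest (58.0% to 77.9%) one of -4.32 points. The direction was opposite to that of the list-specific peaks, where the cyproheptadine list held the peaks poorer in G and C.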

How the data were processed

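H3K4me3 ChIP-Seq libraries were made from MNase-digested chromatin and sequenced as 50 bp single-end reads. The submitters' processing notes name Trimmomatic 0.36, Bowtie2, SAMtools 1.3, MACS2 and mm10. The parameters, the input control and how any replicates were combined are not given in the sources used here. The deposited file of each condition is a peak list with coordinates and a whole-number score written by the authors' pipeline. Only this score, on an unstated scale, and the peak limits were used. Coordinates are printed counting from 1.

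Groups came from the sample labels. Scores were converted to mid-rank percentiles within each list, peaks were matched by at least 1 bp, and promoters were the 1 kb around any GENCODE vM21 start of 21911 coding genes on the nuclear chromosomes (pandas 2.3.3, numpy 2.4.6 and pysam 0.24.0 under Python 3.11.15, intervals by scipy 1.17.1). Sequence features and repeat masking were read from the RefSeq GRCm38 assembly, and 0 chromosomes had a peak past their end. With 1 list per condition the comparison has no replicate test. The steps were tested on simulated data with planted changes. Members, the 23 gene lists and 25 symbol families were chosen with earlier results of these data known.

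Named genes were, in each direction, the 6 strongest promoters marked in a single list with no peak of the other within 5 kb, the 6 largest percentile differences and the 4 largest width ratios with the wider peak at least 1000 bp, then in each gene list the 2 largest differences and every member marked in a single list. Mx2 of the interferon list was not matched in the annotation. Genes sharing a peak are named together, and a few genes and a sequence that this rule selects are not reported here. The vehicle list of the mutant line was not used here. Alternatives are given in the closing section.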

Additional observations from a re-analysis of the deposited data

How the results depend on the processing

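No paired analysis was possible because the cells of a condition are represented by a single peak list. With the cyproheptadine list cut to the length of the DKI list, 84.5% of cyproheptadine peaks were found in DKI and 84.3% the other way. At that length 134 promoters were marked with cyproheptadine only and 337 with DKI only. There 444 were at least 20 points higher with cyproheptadine and 366 with DKI, and the median difference was -0.52 points. Above the median score the shares found were 98.6% and 98.8%, and with a reciprocal overlap of 50% they were 66.6% and 73.1%. With a peak over a start required, 340 promoters were marked with cyproheptadine only and 740 with DKI only. Under that rule 422 were at least 20 points higher with cyproheptadine and 139 with DKI, and the median difference was -1.77 points. Within 5 kb of a start, 361 were marked with cyproheptadine only and 324 with DKI only, which turned their order. Ranked among shared promoters, 947 were at least 20 points higher with cyproheptadine and 936 with DKI. The median difference was -0.013 points, a balance that this ranking fixes by construction. With the peak nearest to a start, 726 were at least 20 points higher with cyproheptadine and 328 with DKI, and the median was -1.91 points. At a threshold of 10 points 2466 were higher with cyproheptadine and 895 with DKI. The width ratio stayed within its main interval under its 5 alternatives.

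Alternatives chosen after seeing the data concerned base composition, reach, the values of named promoters and the list medians, those by shared rank included. The median of G and C in cyproheptadine-specific peaks was 40.3% at equal list sizes, 38.0% in the lowest quintile by score, 39.0% outside coding promoters and 39.7% without chromosome 15. In DKI-specific peaks it was 42.2% in the lowest quintile and 42.5% outside coding promoters. Where loxapine and meclizine lay at the promoters 20 points apart was also ranked among promoters marked in all 4 compound lists, with the values given above. At promoters within 10 points of each other the downstream difference was -76 bp and the upstream difference 3 bp. Within 5 kb of a start the differences of Aamdc (7.86 points), Kdm6a (-5.04), Noct (-11.6) and Ccnd1 (-15.0) turned direction, and the cause was not tested beyond the wider window admitting other peaks. Of 52 values for named promoters 37 moved by less than the SD of the differences between promoters. Of 84 list medians 83 stayed within the interval of the main value, which is wide for short lists. Without read totals, depth cannot be weighed against any of these values.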

Other observations

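Gene families defined by their symbols gave values that the fixed lists do not hold, set here beside the -2.13 points and 38.4% higher with DKI over all shared promoters. The Hox clusters, which carry positional identity, had 14 of 20 shared promoters higher with DKI (70.0%), with a median difference of 4.52 points and 5.88 by shared rank. The promoters marked with DKI only included Hoxa9, Hoxb5 and Hoxc8, and those with cyproheptadine only were Hoxb8 and Hoxc12. Histone genes had 41 of 63 higher with DKI (65.1%, median 1.13 points, 7.77 by shared rank), while all 10 histone promoters that differed by at least 20 points were higher with cyproheptadine, where over all shared promoters 5.49% were at least 20 points higher with cyproheptadine and 1.62% with DKI. Histone gene copies are alike in sequence, and how reads were assigned among them was not tested. Chemokine genes (Ccl and Cxcl) had 1 of 11 higher with DKI (9.09%, median -10.2 points, -2.29 by shared rank), and G protein-coupled receptor genes (Gpr and Adgr) had 8 of 34 (23.5%, median -8.67 points, -2.48 by shared rank). Proteasome subunits had 12 of 38 (31.6%, median -4.38 points, -5.01 by shared rank).

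Among families with tissue-restricted members, olfactory and vomeronasal receptor genes had 13 promoters marked with cyproheptadine only and 10 with DKI only, against 5 in both, of 1464 genes. Interleukin and receptor genes had 3 with cyproheptadine only (Il17d, Il20ra and Il34) and 0 with DKI only, and potassium channel genes had 0 and 3 (Kcnc2, Kcnj10 and Kcnn1). Over all promoters marked in either list 1.51% were marked with cyproheptadine only and 2.23% with DKI only, and counts this small are given as values only. Collagen genes had 15 of 25 higher with DKI (60.0%, median 1.03 points, 4.96 by shared rank), and tripartite motif genes 23 of 37 (62.2%, median 1.90 points, 3.24 by shared rank).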
